A study of Mus musculus with 12 samples.

Results

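Cck, Npy and Edn1 encode 3 secreted signalling peptides, cholecystokinin, neuropeptide Y and endothelin-1. They were taken by gene name from a table of 21950 genes measured in whole mouse lung and a table of 8096 genes measured in extracellular vesicles, the small membrane-bound particles that cells release. All 3 genes were listed in the lung table, and Cck and Npy were listed in the vesicle table. Edn1 was not listed for vesicles, and no vesicle level is read from that. The 3 genes were selected on measured values, since their RPKM in these same libraries was known, so their levels and the differences between groups are given as a description, without a test.

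RNA was sequenced in 12 libraries from adult C57BL/6 mice. There were 2 lung libraries of the genotype labelled ColcreER; Tbx4flox/flox and 4 wild-type lung libraries, and 2 vesicle libraries of the same mutant label and 4 wild-type vesicle libraries. Vesicles came from medium conditioned for 48 hours by cultured lung mesenchymal cells, the connective tissue and smooth muscle cells of the organ. The design text of the series names another genotype, Tbx4creER; Ghrflox/flox, so the groups are called mutant-labelled. The labels do not say which cells the Cre line targets, whether or when recombination was induced, or how many mice stood behind a library, so the spread between libraries may in part be technical.

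The values are RPKM, the reads of a gene scaled by its exon length in kilobases and by the M (megareads) that the library had in genes. Lung libraries held 42.7 to 44.8 M reads. Vesicle libraries were shallower, with 1.75 and 1.68 M reads under the mutant label and 4.20 to 5.41 M reads in wild type. Gene-level Tbx4 in lung was 20.9 and 36.7 RPKM in mutant-labelled libraries and 26.1 to 30.1 RPKM in wild-type libraries, and Ghr was 9.83 and 12.9 RPKM against 11.8 to 13.3 RPKM. In vesicles Tbx4 was not listed, and Ghr was 13.1 and 11.2 RPKM in mutant-labelled libraries against 19.8 to 25.1 RPKM in wild-type ones. Neither gene told the labels apart in lung, and deleted exons cannot be seen in a gene-level value. The Y-linked transcripts Ddx3y and Eif2s3y were present in wild-type replicates 1 and 2 of both lung and vesicles, and were at or near 0 in wild-type replicates 3 and 4 and in every mutant-labelled library. The first mutant-labelled vesicle library stood apart in its mesenchymal markers. The summed level of the 12 listed mesenchymal genes was 331 RPKM in it and 2408 RPKM in the second mutant-labelled library, against 1182 to 2263 RPKM in wild-type vesicles. In that first library Dcn, which encodes decorin, was at 0.550 RPKM and the smooth muscle myosin gene Myh11 at 0.778 RPKM.

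Each of these peptides is cut out of a longer precursor inside the secretory pathway and acts on receptors at the cell surface. Cholecystokinin is best known from the gut and brain, where it releases bile and pancreatic enzymes and acts as a neurotransmitter. Neuropeptide Y is a co-transmitter of sympathetic nerves that narrows blood vessels, and in mice platelets carry it too. Endothelin-1 is made mainly by the cells that line blood vessels, is among the strongest vessel-constricting substances known, and is a drug target in pulmonary hypertension.

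The coding sequence of the 3 peptides is shown because it is what the reads of these genes report on: RNA for a precursor, not the cut and modified hormone. The stretches are from the GENCODE M1 transcripts on the mouse build NCBIM37 (mm9), written 5′ to 3′ on the coding strand. In Cck the capitals mark the last 8 codons of the 33-codon peptide, the part that binds its receptors, and the 3 codons after it hold the glycine used for amidation and a basic pair. In Npy the capitals mark those same 3 processing codons after the 36-codon peptide. In Edn1 the capitals mark the 4 cysteine codons of the 21-codon peptide, whose disulphide bridges fold it.
Cck: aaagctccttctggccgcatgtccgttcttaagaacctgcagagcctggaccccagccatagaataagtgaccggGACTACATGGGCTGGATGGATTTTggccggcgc
Npy: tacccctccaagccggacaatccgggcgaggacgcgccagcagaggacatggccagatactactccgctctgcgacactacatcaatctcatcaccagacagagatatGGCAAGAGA
Edn1: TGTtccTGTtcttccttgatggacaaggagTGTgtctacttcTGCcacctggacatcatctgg

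The genes lie on 3 chromosomes. Cck (ENSMUSG00000032532) is at chr9:121398943-121404807 on the minus strand, Npy (ENSMUSG00000029819) at chr6:49772709-49779506 on the plus strand and Edn1 (ENSMUSG00000021367) at chr13:42396639-42403358 on the plus strand. All 3 are annotated as protein coding. Their precursors have 115, 97 and 202 residues. Dividing the RPKM values by the worth of 1 read gave whole reads at a length of 685 bases for Cck, 566 for Npy and 2344 for Edn1, which are the lengths of the transcripts shown.

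Cck was among the most abundant transcripts of the vesicles and was close to undetected in the lung. In vesicles it stood at 499 and 950 RPKM in the mutant-labelled libraries, on 596 and 1091 reads. In wild-type vesicles it stood at 606, 524, 1809 and 2167 RPKM, on 1858, 1675, 5203 and 8025 reads. The mutant-labelled pair fell within the lower range of the wild-type libraries or just under it, and the 2 groups overlapped. Among the 8096 listed genes Cck ranked 81 and 61 in the mutant-labelled libraries and 109, 78, 31 and 23 in the wild-type libraries, so it kept a high place in each of the 6. It took between 0.112% and 0.519% of the summed RPKM of a vesicle library.

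Mean Cck in vesicles was 724 ± 319 RPKM in mutant-labelled libraries (SD, n = 2) and 1276 ± 835 RPKM in wild-type libraries (SD, n = 4). The difference of the means of log2(RPKM + 1), mutant-labelled minus wild type, was -0.62. This is smaller than the spread among the wild-type libraries, whose SD on that scale was 1.05. The wild-type spread fell in 2 pairs. Replicates 1 and 2, the ones with Y-linked transcripts, had 606 and 524 RPKM, and replicates 3 and 4 had 1809 and 2167 RPKM. Without replicates 1 and 2 the difference was -1.52, since the mutant-labelled libraries also lack Y-linked transcripts and are then set against the higher pair alone. Whether the sex of the mice or another property of those cultures goes with Cck was not tested.

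In the lung, Cck was read 3 times among 260.8 M reads in the 6 libraries. The first mutant-labelled lung had 0 reads and the second had 1, at 0.0338 RPKM. Wild-type lungs had 0, 1, 1 and 0 reads, and the libraries with a read stood at 0.0336 and 0.0326 RPKM. A level of 3 reads would be 0.0977 to 0.103 RPKM in these libraries, so a lower level could not be resolved and no difference between the lung groups can be read. Cck did not pass the filter of at least 1 RPKM in at least 2 lung libraries.

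Few genes shared this contrast between vesicles and lung. The 2 tables were made from libraries of different size and starting material, so levels are set side by side and no fold between them is given. Of the 8096 vesicle genes, all also in the lung table, 45 were under 0.1 RPKM in every lung library. Ranked by their lowest value over the 6 vesicle libraries, Cck came first at 499 RPKM. The next were Tbx15, a T-box transcription factor, at 7.75 RPKM and Emx2, a homeobox transcription factor, at 7.39 RPKM, and these 3 alone had at least 1 RPKM in all 6 vesicle libraries.

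**Figure D1:**
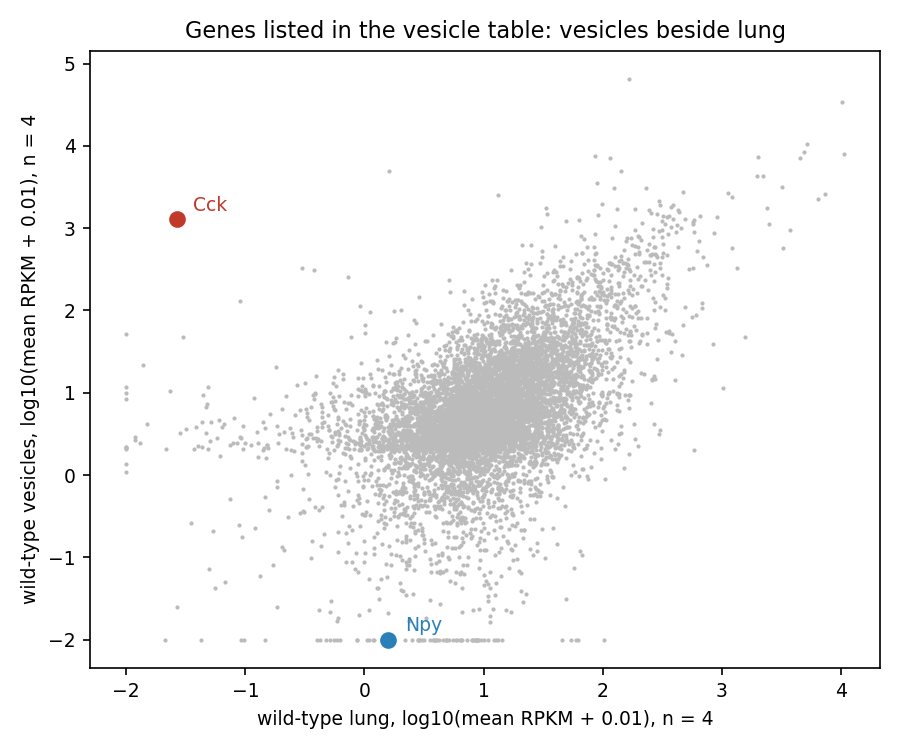
Mean RPKM of the 4 wild-type vesicle libraries (vertical) against the mean of the 4 wild-type lung libraries (horizontal), both as log10(RPKM + 0.01), for the 8096 genes of the vesicle table; each grey point is a gene. Cck lies at the upper left, at a mean of 1276 RPKM in vesicles with at most 1 read in a lung library, and Npy lies on the bottom edge because it had 0 reads in each wild-type vesicle library.

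No other gene of the cholecystokinin system was listed beside Cck in the vesicles. Gast, the gene of the related hormone gastrin, and the receptor genes Cckar and Cckbr were not listed, so their vesicle level is not known. In lung a receptor gene was present and Cck was nearly absent. Cckar was at 37.8 and 24.5 RPKM in the mutant-labelled pair of lungs and at 23.7, 30.8, 29.5 and 33.1 RPKM in wild-type lungs. The groups overlapped, and the log2 difference was 0.06 with an SE of 0.20 (limma-trend, adjusted p = 0.994). Cckbr had 1 read in a single wild-type lung, and Gast had 0 reads in all 6 lungs.

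Some markers of the cell types best known for peptide hormones were listed in the vesicles. Over all lung genes 36.9% were listed there, and a gene not listed is not shown to be absent. Of 13 pulmonary neuroendocrine genes 3 were listed, and Chga, Chgb and Calca, which mark these airway cells, were not. The summed level of the 3 was 24.0 and 21.6 RPKM in mutant-labelled vesicles and 16.3 to 33.3 RPKM in wild-type vesicles, which is far under the level of Cck, and most of it was Cplx2, a synaptic release factor. Of 14 neuronal genes only Gap43, a growth cone protein that other cells make too, was listed. Gap43 had 0 RPKM in both mutant-labelled vesicle libraries and 8.06, 26.9, 7.50 and 16.2 RPKM in the wild-type ones, with an adjusted p of 0.374 by limma-trend.

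By contrast, mesenchymal markers were abundant. Acta2, the smooth muscle actin gene, stood at 203 and 1537 RPKM in mutant-labelled vesicles and at 739 to 1293 RPKM in wild-type vesicles. The first mutant-labelled library, lowest in Acta2, was also the lowest of the 6 in Cck at 499 RPKM. In the second, whose mesenchymal sum lay above the wild-type range, Cck was 950 RPKM. Leaving out the first changed the Cck difference to -0.15 and leaving out the second to -1.08. The part of mesenchymal RNA content in the Cck values was not tested.

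Of 21 genes for prohormone processing and dense-core granules 7 were listed in vesicles, a share near the 36.9% over all lung genes. The filter was passed by 6, with 0 called, as over all tested vesicle genes (0%). Cpe, the carboxypeptidase that trims basic residues from peptide hormones, stood at 28.3 and 71.2 RPKM in mutant-labelled vesicles and at 37.4, 51.0, 9.70 and 43.4 RPKM in wild-type vesicles. Pam, the enzyme that amidates peptides such as cholecystokinin and neuropeptide Y, stood at 0 and 0.903 RPKM in mutant-labelled vesicles and at 1.22, 0.343, 2.44 and 6.35 RPKM in wild-type vesicles. Both overlapped between groups. Tpst1, which adds the sulphate that cholecystokinin carries, stood at 2.67 and 8.13 RPKM in mutant-labelled vesicles and at 0, 0.0769, 7.68 and 0.663 RPKM in wild-type vesicles. Of 40 other peptide hormone genes only Adm and Pomc were listed, at most 21.3 and 11.1 RPKM in any vesicle library.

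The genes whose log2(RPKM + 1) followed Cck most closely over the 6 vesicle libraries were Dbnl, Uaca, Ggct, Klc1 and Hoxb7. Their Pearson r ranged from 0.981 to 0.997, picked as the highest among 7615 genes over 6 libraries that share the same depths. Uaca stood at 37.9 and 70.0 RPKM in mutant-labelled vesicles and at 39.5, 43.6, 124 and 130 RPKM in wild-type vesicles. Hoxb7, a homeobox gene, stood at 0 and 5.79 RPKM in mutant-labelled vesicles and at 0, 0.417, 16.96 and 37.1 RPKM in wild-type vesicles. Each had its 2 highest values in wild-type replicates 3 and 4, as Cck did.

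Npy was found in both mutant-labelled vesicle libraries and in none of the 4 wild-type ones. It stood at 56.7 and 11.6 RPKM in mutant-labelled vesicles, on 56 and 11 reads. In wild-type vesicles it had 0 reads in each library, although those libraries were deeper. A level of 3 reads in them would be 0.980 to 1.26 RPKM. The mutant-labelled mean of 34.1 RPKM was at least 27.1-fold higher than the highest of these levels, and the lower mutant-labelled library alone was 9.18 times that level. These ratios cover counting error only, and the 2 mutant-labelled libraries differed 4.89-fold between themselves.

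Few listed genes had this pattern, but Npy was chosen with its values known, and the count rests on how the vesicle table was made. Of the 8096 listed genes 14, or 0.173%, were at 0 in every wild-type library and above 0 in both mutant-labelled ones, and Npy had the highest lower value among them. The reverse pattern, 0 in both mutant-labelled libraries and above 0 in each wild-type one, was seen for 123 genes, or 1.52%. A 0 is reached more easily at the 1.75 and 1.68 M reads of the mutant-labelled libraries than at 4.20 to 5.41 M in wild type. Counts of the opposite patterns therefore cannot be compared. For every gene of the vesicle table at least 1 group had a mean of 2.003 RPKM or more. Npy was therefore listed through its mutant-labelled level alone, and a listed gene with 0 in wild type had to differ. With limma-trend at an adjusted p of 0.05 the vesicle comparison called 0 of 7615 genes (0%), and 781, or 10.3%, had an unadjusted p under 0.05.

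**Figure D2:**
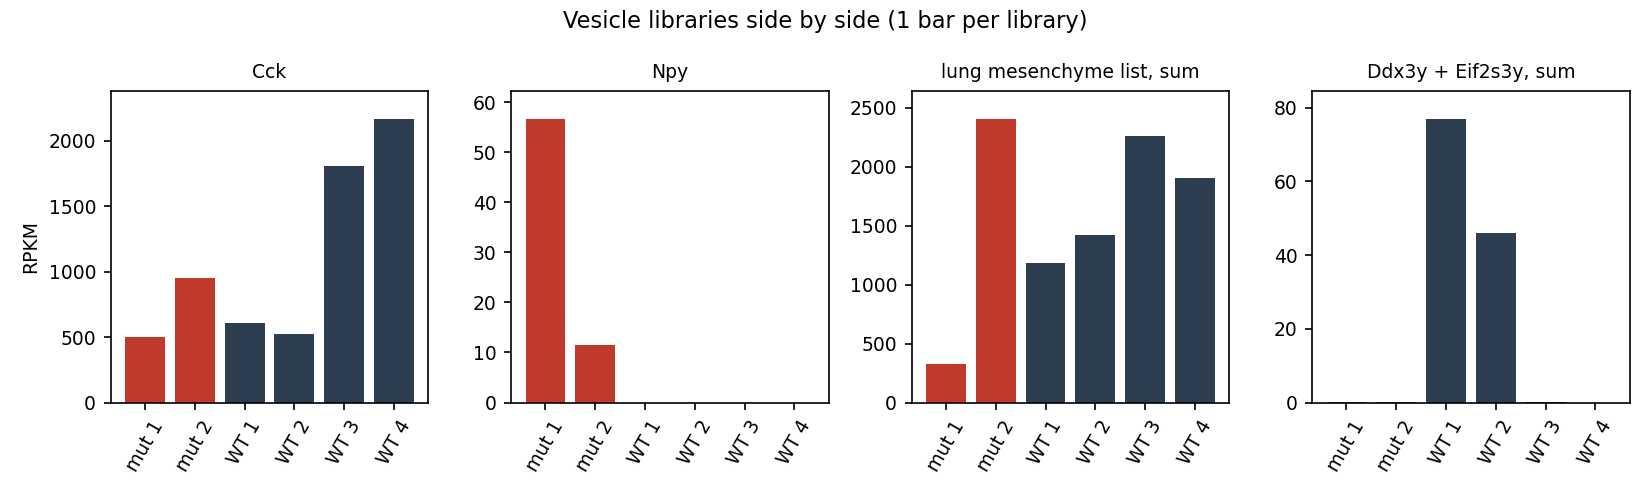
RPKM of Cck and Npy, the summed RPKM of the 12 listed mesenchymal genes and the summed RPKM of Ddx3y and Eif2s3y in each of the 2 mutant-labelled (mut) and 4 wild-type (WT) vesicle libraries, 1 bar per library and no error bars. Npy is highest, at 56.7 RPKM, in the library with the lowest mesenchymal sum, and Cck is highest in the 2 wild-type libraries without Y-linked transcripts.

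The 2 libraries with Npy were unlike each other in other respects. The first, with 56.7 RPKM of Npy, was the one low in mesenchymal markers. It was also high in single genes from some marker lists of other tissues, and not in those of others. Upk1b of the mesothelial list was at 48.9 RPKM, Fabp4 of the adipocyte list at 29.5 RPKM and Tnni3 of the heart list at 19.996 RPKM. In the second library, with 11.6 RPKM of Npy, these 3 genes were at 2.02, 3.24 and 1.71 RPKM. Their highest wild-type values were 11.4, 1.97 and 0.383 RPKM. The 2 listed airway genes summed to 5.23 and 0 RPKM in mutant-labelled vesicles and to 99.3, 0.292, 0.324 and 0.0504 RPKM in wild-type ones. The 2 listed alveolar genes summed to 10.3 and 118 RPKM in mutant-labelled vesicles and to 45.5 to 111 RPKM in wild-type ones. Of 9 adipocyte genes only Fabp4 was listed in vesicles, and of 12 heart genes only Tnni3. Upk3b, the other listed mesothelial gene, had 2.60 and 0 RPKM in mutant-labelled vesicles and was highest, at 15.8 RPKM, in wild-type replicate 2. The macrophage gene Cd68 had 275 and 203 RPKM in mutant-labelled vesicles and 0.178, 105, 101 and 9.56 RPKM in wild-type vesicles. The other 3 listed leukocyte genes overlapped, with Ptprc at 2.25 and 2.18 RPKM in mutant-labelled vesicles and 0.0122 to 3.42 RPKM in wild-type vesicles. Csf1r had 5.04 and 6.72 RPKM in mutant-labelled vesicles and 0 to 15.5 RPKM in wild-type vesicles, and S100a8 had 0 and 7.74 RPKM in mutant-labelled vesicles and 0 to 18.5 RPKM in wild-type vesicles. The sum of the 4 was 283 and 220 RPKM in mutant-labelled vesicles and 11.7 to 132 RPKM in wild-type vesicles. Of 12 megakaryocyte and platelet genes 4 were listed in vesicles. Pf4, the platelet factor gene, was at 0 and 31.5 RPKM in mutant-labelled vesicles and at 0 in each wild-type one. Of the neuronal list, the sympathetic genes Th and Dbh were not listed. The part of these RNAs in the Npy values was not tested. Across ranked gene levels, the mutant-labelled pair had a Spearman correlation of 0.399 and the wild-type pairs 0.605 to 0.687.

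Npy in whole lung was low in all 6 libraries and did not separate the groups. It measured 1.90 and 0.819 RPKM in mutant-labelled lungs, on 47 and 20 reads. In wild-type lungs it stood at 0.579, 1.42, 3.23 and 1.07 RPKM, on 14, 35, 82 and 26 reads. The wild-type libraries spanned 5.58-fold and enclosed both mutant-labelled values. The means were 1.36 ± 0.763 RPKM in mutant-labelled lungs (SD, n = 2) and 1.58 ± 1.16 RPKM in wild-type lungs (SD, n = 4), and the log2 difference was -0.07. That difference was 0.27 without mutant-labelled replicate 2 and 0.20 without wild-type replicate 3, so its direction turned on a single library. Both mutant-labelled vesicle values lay above the lungs of either label, across 2 tables normalized separately. Wild-type vesicles at 0 reads cannot be placed against lung, since some lungs lay under their 3-read level.

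Sympathetic and platelet genes of the lung were measured beside Npy. Slc6a2, the noradrenaline transporter gene of sympathetic nerve, was 6.31 and 8.40 RPKM in mutant-labelled lungs and 6.39, 12.7, 8.28 and 7.80 RPKM in wild-type lungs, and was highest in replicate 2 where Npy was highest in replicate 3. The summed level of 14 neuronal genes was 24.8 and 34.0 RPKM in mutant-labelled lungs and 24.6 to 34.1 RPKM in wild-type lungs. Pf4 was 12.7 and 11.8 RPKM in mutant-labelled lungs and 12.6, 12.1, 15.5 and 10.4 RPKM in wild-type lungs. The 5 genes closest to Npy over the 6 lungs were Pi4k2a, Ptgs1, Tnfrsf11a, Mtch2 and Ap3b1, with r of 0.978 to 0.985. These were picked as the highest among 13701 genes. Ptgs1, which encodes cyclooxygenase-1, was 17.1 and 12.5 RPKM in mutant-labelled lungs and 12.6, 15.5, 22.8 and 14.9 RPKM in wild-type lungs.

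**Figure D3:**
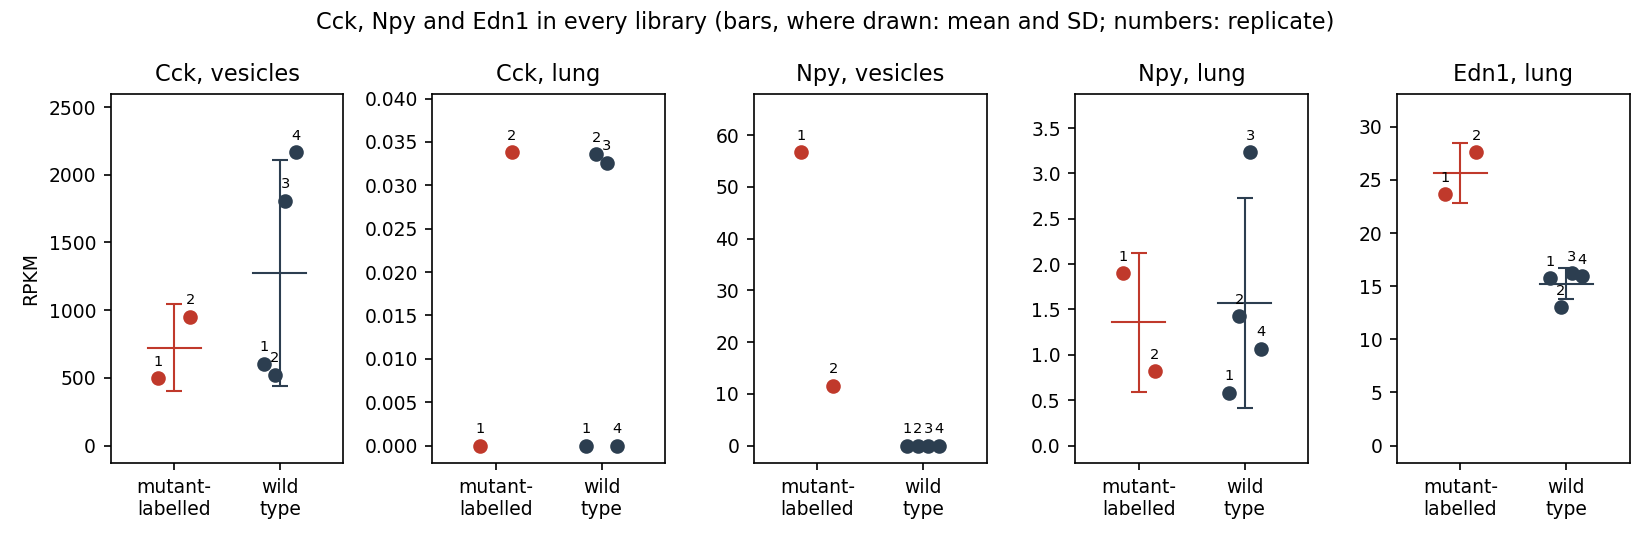
RPKM of Cck, Npy and Edn1 in every library of the tables that list them, mutant-labelled (n = 2) left of wild type (n = 4), each point a library marked with its replicate number; horizontal and vertical bars are the mean and SD and are left out for Cck in lung and Npy in vesicles. Only Edn1 in lung and Npy in vesicles show no overlap, with Edn1 at 23.7 and 27.6 RPKM in the 2 mutant-labelled lungs and 13.0 to 16.2 RPKM in wild-type lungs. On the higher side 7.5% of tested lung genes and 9.88% of tested vesicle genes did not overlap. Npy was listed in vesicles through its mutant-labelled level alone.

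Among neuropeptide Y receptors only Npy1r, the receptor that narrows vessels, was above 1 RPKM in every lung. In lung it stood at 4.33 and 3.06 RPKM in mutant-labelled libraries and at 2.68, 2.60, 4.56 and 3.31 RPKM in wild-type ones, with overlap. Npy2r, Npy4r and Npy5r stayed at or under 0.122 RPKM in every lung, and Npy6r and Pyy, the gene of peptide YY, had 0 reads. Ppy, the gene of pancreatic polypeptide, reached at most 0.644 RPKM. Dpp4, a protease that trims neuropeptide Y, was 14.3 and 18.5 RPKM in mutant-labelled lungs and 17.9 to 18.3 RPKM in wild-type lungs. Of the 8 genes 2 passed the filter, 0 were called by limma-trend and 0 had an unadjusted p under 0.05. Over all tested lung genes 0% were called and 3.75% had such a p, so these counts are near the background.

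In vesicles Npy1r was the only listed gene of that system besides Npy, and it lay the other way. It had 1 and 3 reads in mutant-labelled vesicles, at 0.191 and 0.595 RPKM. Wild-type vesicles had 145, 35, 62 and 50 reads, at 10.8, 2.50, 4.91 and 3.08 RPKM. The groups did not overlap, as for 9.94% of tested vesicle genes in that direction. The log2 difference was -2.03 with an SE of 0.97, and it did not pass the test (limma-trend, adjusted p = 0.493).

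The genes closest to Npy over the vesicle libraries were Adap1, Il20rb, Rbm15, Pitpnm1 and Atg14, with r of at least 0.996. Such values follow from the shared zeros, since each was at or near 0 in the 4 wild-type libraries. Adap1 stood at 15.3 and 4.57 RPKM and Il20rb, a subunit of an interleukin receptor, at 6.24 and 2.27 RPKM in mutant-labelled vesicles, and both had 0 RPKM in each wild-type library. Atg14, an autophagy gene, stood at 23.3 and 7.26 RPKM in mutant-labelled vesicles and at 0 to 0.435 RPKM in wild-type vesicles.

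Edn1 was higher in both mutant-labelled lungs than in any wild-type lung. It had 23.7 and 27.6 RPKM in the mutant-labelled lungs, on 2426 and 2794 reads. In wild-type lungs it stood at 15.8, 13.0, 16.2 and 16.0 RPKM, on 1577, 1328, 1704 and 1606 reads. The groups did not overlap, and the lowest mutant-labelled value was 1.46 times the highest wild-type value. The same held, in that direction, for 7.5% of the 13701 genes tested in lung, and 4.12% were separated in the other direction. The means were 25.6 ± 2.80 RPKM in mutant-labelled lungs (SD, n = 2) and 15.2 ± 1.49 RPKM in wild-type lungs (SD, n = 4), a ratio of 1.68. The log2 difference was 0.71, against SDs of 0.15 in mutant-labelled and 0.14 in wild-type lungs on that scale.

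With Y-linked wild-type lungs left out the log2 difference of Edn1 was 0.64. With each library left out in turn it ranged from 0.61 to 0.82. Its direction could not turn when libraries were left out, since the groups did not overlap. With limma-trend at an adjusted p of 0.05 the lung comparison called 0 of 13701 genes (0%), while 514, or 3.75%, had an unadjusted p under 0.05. In whole lung, more cells that make Edn1 and more Edn1 RNA per cell cannot be told apart.

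The genes of the partners of endothelin-1 overlapped between the groups. Ednra, the receptor on vascular smooth muscle, was at 14.6 and 22.9 RPKM in the mutant-labelled pair of lungs and at 17.7 to 19.3 RPKM in wild-type lungs. Ednrb, the receptor that also clears the peptide, measured 28.0 and 50.1 RPKM in mutant-labelled lungs and 30.2 to 40.6 RPKM in wild-type lungs. For both receptors the 2 mutant-labelled lungs fell on either side of the wild-type range. Ece1, the enzyme that frees endothelin from its longer form, had 63.9 and 90.0 RPKM in the mutant-labelled lungs and 76.7 to 86.1 RPKM in wild-type lungs, again with 1 mutant-labelled lung on each side.

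The remaining genes of the system overlapped too. Edn3 was at 4.09 and 6.31 RPKM in the mutant-labelled pair of lungs and at 5.12 to 6.48 RPKM in wild-type lungs. Mme, the gene of neprilysin, which degrades endothelins, measured 10.2 and 12.8 RPKM in mutant-labelled lungs and 11.5 to 14.5 RPKM in wild-type lungs. Edn2 and Kel were at or under 0.0938 RPKM in every lung, and Ece2, a second converting enzyme, had 0.549 and 0.524 RPKM in the mutant-labelled lungs and 0.460 to 0.540 RPKM in wild-type lungs. Of the 8 genes 5 passed the filter, 0 were called and 0 had an unadjusted p under 0.05. These counts are near the shares over all tested lung genes, 0% called and 3.75% with such a p. The median log2 difference of the 5 genes was -0.08, beside 0.01 over all tested lung genes.

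**Figure D4:**
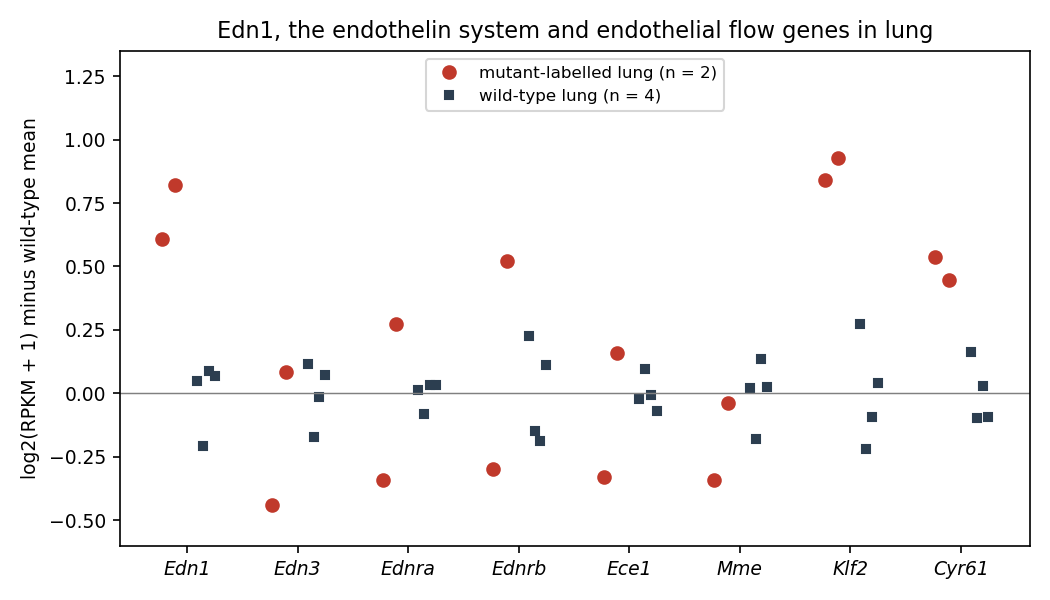
Difference of log2(RPKM + 1) from the wild-type mean for Edn1, 5 genes of the endothelin system and the vessel flow genes Klf2 and Cyr61, for each mutant-labelled lung (circles, n = 2) and wild-type lung (squares, n = 4). Edn1, Klf2 and Cyr61 have both circles above all 4 squares. Klf2 and Cyr61 were the only 2 of 8 tested flow or stress genes to do so, beside 7.5% of all tested lung genes. The rest of that list is not drawn. For Ednra, Ednrb and Ece1 the circles lie on both sides of the squares.

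Endothelial markers as a whole did not separate the lungs the way Edn1 did. The 14 endothelial genes summed to 1014 and 1394 RPKM in mutant-labelled lungs and to 1132 to 1291 RPKM in wild-type lungs, and the library with the lower sum had 23.7 RPKM of Edn1. The part of endothelial RNA in the Edn1 values was not tested. Cdh5, the gene of the cadherin that joins endothelial cells, was at 164 and 283 RPKM in the mutant-labelled pair of lungs and at 204 to 219 RPKM in wild-type lungs. Cldn5, a tight junction gene of endothelium, measured 244 and 313 RPKM in mutant-labelled lungs and 243 to 310 RPKM in wild-type lungs. Of the 14 genes 0 were called and 0 were non-overlapping. Over all tested lung genes 0% were called, and 7.5% and 4.12% did not overlap on the higher and lower side. With 14 genes a count of 0 is not far from these shares.

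Genes that respond to flow or stress in the vessel wall were mixed in direction. Of 10 such genes 8 passed the filter and 0 were called, as over all tested lung genes (0%). Of the 8, 5 had a difference above 0 and 2 did not overlap on the higher side, beside 7.5% of all tested lung genes. Klf2, a transcription factor induced by laminar flow, had 137 and 146 RPKM in the mutant-labelled lungs and 92.5, 65.3, 71.3 and 78.5 RPKM in wild-type lungs. Its log2 difference was 0.88 with an SE of 0.14, which did not pass (limma-trend, adjusted p = 0.646). Cyr61, a matrix protein gene induced by stretch, was at 106 and 99.5 RPKM in the mutant-labelled pair of lungs and at 81.5, 68.0, 74.3 and 68.2 RPKM in wild-type lungs, with an adjusted p of 0.853. Thbd, Icam1 and Ctgf overlapped between the groups.

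Immediate early genes, which are induced within minutes by many stimuli, also lay on the higher side. Their summed level over 15 genes, among them Klf2, was 728 and 633 RPKM in mutant-labelled lungs and 439 to 545 RPKM in wild-type lungs. Of the 15 genes 13 had a difference above 0, 7 had an unadjusted p under 0.05, 6 did not overlap and 0 were called. Over all tested lung genes 0% were called, 3.75% had such a p and 7.5% did not overlap on the higher side. Dusp1, a phosphatase gene, measured 67.0 and 56.1 RPKM in mutant-labelled lungs and 40.5, 32.5, 35.9 and 42.7 RPKM in wild-type lungs. The first mutant-labelled lung had the higher sum of these genes and the lower of the 2 Edn1 values. Their part in the Edn1 values was not tested.

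Neutrophil genes lay the same way as well. S100a8 had 101 and 207 RPKM in the mutant-labelled lungs and 33.8, 35.2, 50.1 and 23.0 RPKM in wild-type lungs. Ly6g, which marks mouse neutrophils, was at 2.14 and 3.74 RPKM in the mutant-labelled pair of lungs and at 0.323, 0.220, 0.403 and 0.222 RPKM in wild-type lungs (limma-trend, adjusted p = 0.364). The sum of the 14 leukocyte genes, 1104 and 1071 RPKM in mutant-labelled lungs and 323 to 1101 RPKM in wild-type lungs, did overlap, and in wild-type replicate 3 the macrophage gene Chil3 made up 741 RPKM of it. The gene closest to Edn1 over the 6 lungs was Fpr2, a receptor of neutrophils and macrophages for formylated peptides. It measured 8.12 and 9.91 RPKM in mutant-labelled lungs and 5.28, 4.34, 5.44 and 5.35 RPKM in wild-type lungs, with r = 0.999, the only one of 13701 genes at or above 0.99. That r was picked as the highest over only 6 libraries, with Edn1 chosen for known values, so it ties Edn1 to no cell type. Rps27rt, Mul1, Lysmd4 and Pycard followed, with r of 0.977 to 0.983. The part of leukocyte RNA in the Edn1 values was not tested.

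In vesicles 3 genes of the endothelin system were listed, Ece1, Ece2 and Mme, and 0 of them were called, as over all tested vesicle genes (0%). Ece1 stood at 13.2 and 14.99 RPKM in mutant-labelled vesicles, on 120 and 131 reads. In wild-type vesicles it stood at 0.171, 0.946, 1.42 and 2.48 RPKM, on 4, 23, 31 and 70 reads. The groups did not overlap, as for 9.88% of tested vesicle genes in that direction. The log2 difference was 2.85 with an SE of 0.95 (limma-trend, adjusted p = 0.445). Mme stood at 16.8 and 1.37 RPKM in mutant-labelled vesicles and at 1.80, 0.0760, 0.844 and 0.148 RPKM in wild-type vesicles, and Ece2 at 0.0894 and 8.93 RPKM in mutant-labelled vesicles against 4.32, 0.134, 1.71 and 0.231 RPKM in wild-type ones, both with overlap.

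Other peptide hormone genes of the lung were also measured. Of 40 such genes 8 passed the filter in lung, 2 of them with a difference above 0. None was called, as over all tested lung genes (0%). Apln, the gene of the vessel peptide apelin, had 15.9 and 30.8 RPKM in the mutant-labelled lungs and 19.0 to 30.2 RPKM in wild-type lungs. Adm, the gene of the vessel-widening peptide adrenomedullin, was at 4.05 and 7.07 RPKM in the mutant-labelled pair of lungs and at 4.80 to 5.47 RPKM in wild-type lungs. Penk, the enkephalin precursor gene, was separated on the lower side, as 4.12% of tested lung genes were. It had 1.85 and 0.950 RPKM in the 2 mutant-labelled lungs and 4.34, 4.17, 2.40 and 2.42 RPKM in wild-type lungs. Penk did not pass (log2 difference -0.85, SE 0.26, limma-trend adjusted p = 0.994). Edn1 lay below Apln in each wild-type lung, and Cck was below each of these 3 hormone genes in every lung.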

How the data were processed

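The authors deposited 1 table of lung and 1 of vesicle values. Alignment to mm9 with TopHat2 and counting with HTSeq are given per the submitters' processing notes. Of their versions, the strand setting and the annotation nothing is stated in these sources. The deposited values were read as RPKM from the values themselves, since the headers name no unit: after multiplication by exon length (GENCODE M1), 49.0% to 54.3% of a library's values above 0 lay within 0.02 of a whole number of steps, with 1 step size for each library. That step gave the depths and the reads per gene. A read here may be a read pair. There were 0 value columns that no sample claimed.

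The 2 groups of a table were compared by limma-trend (limma 3.58.1, R 4.3.3) on log2(RPKM + 1). Genes entered if 2 or more libraries had 1 RPKM or more, with Benjamini-Hochberg adjustment at 0.05. Low genes appear less changed on this scale than they are. The fit was tested on simulated data with known log2 changes of 1 and 2 in either direction. It recovered 100% of them in lung and 0% in vesicles, so an absence of calls in vesicles carries little weight. In the measured lungs Ly6g had a log2 difference of 1.58 and was not called (limma-trend, adjusted p = 0.364). Recovery in lung therefore does not tell which measured differences would be called. Recovery of a change as small as the 0.71 of Edn1 was not tested. With the strand setting unknown, reads of a gene and of an antisense partner cannot be told apart.

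The 3 genes and the 20 gene lists were chosen with earlier results of these data known. Named in full were the 3 genes and the cholecystokinin, neuropeptide Y and endothelin systems. From other lists up to 3 genes with the highest mean and up to 3 with the smallest p were named, and the 5 genes most correlated with each member. Tbx15, Emx2 and Gm17374 were named after their values were seen, and defining markers not listed in vesicles are named without values. Alternatives were the pseudocount, the filter, the replicate block, Y-linked transcripts, median-ratio scaling and leaving out each library. The 3-read levels cover counting error only, and the SEs of limma-trend rest on the spread between libraries.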

Additional observations from a re-analysis of the deposited data

Results flagged for a closer look

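In 2 of 18 groups of 4 wild-type libraries checked, 1 library lay far from the others, where chance gives about 1 in 20. Edn1 in wild-type lung was 13.0 RPKM in replicate 2, and the nearest of the other 3 was 15.8 RPKM. Without that library the Edn1 difference between mutant-labelled and wild-type lungs was 0.65 on the log2 scale. Ece2 in wild-type lung was 0.540 RPKM in replicate 3, and the nearest of the others was 0.463 RPKM. That library lay between the mutant-labelled values of 0.549 and 0.524 RPKM, and it alone made the Ece2 groups overlap.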

How the results depend on the processing

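Under the alternatives tried, the Edn1 difference kept its sign (leave-one-out 0.61 to 0.82). The Edn1 groups did not overlap, so leaving out a library could not have turned the sign. With a pseudocount of 0.1 the Npy difference in vesicles was 8.01 in place of 4.75, and leaving out single libraries gave 3.65 to 5.85; the size of this difference therefore follows the pseudocount, since wild type is at 0. With single libraries left out the Cck difference in vesicles ranged from -1.08 to -0.15 and the Npy difference in lung from -0.40 to 0.27, crossing 0. Without the Y-linked libraries the Cck difference was -1.52. The labels do not say whether shared replicate numbers mark pairs. Over lung genes the deviations of same-numbered libraries correlated at -0.48 and 0.05, and over vesicle genes at -0.05 and -0.12. With 2 mutant-labelled libraries the deviations of 1 mirror those of the other, so these values cannot settle whether libraries were paired. As a replicate block the numbers gave differences of 0.29 for Cck in vesicles and 0.23 for Npy in lung. Each was opposite in sign to the unblocked values of -0.62 and -0.07. For Edn1 the block gave 0.79 and for Npy in vesicles 4.75. The block sets the mutant-labelled libraries against wild-type replicates 1 and 2 alone. Those hold the Y-linked transcripts and, in vesicles, the lower wild-type Cck values. The replicate block changed 0 calls. Genes called in lung numbered 0 to 0 with single libraries left out and 1, Gm17374, without the filter on low values. Genes called in vesicles numbered 0 to 377, with 377 when mutant-labelled replicate 2 was left out, and list genes called there 0 to 6; the lone library left was assumed to vary like the others, and it is the one low in mesenchymal markers. The mutant-labelled vesicle values rest on 2 libraries of 1.68 and 1.75 M reads.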
